A study of Cicer arietinum with 24 samples.

Results

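A set of 250 chickpea genes, of 25110 genes analysed, had high transcript levels in leaf and at the last seed stages S6 and S7 and lower levels at the younger stages S1 to S5. Transcript abundance was given as FPKM, the number of sequenced fragments scaled to transcript length and to the size of the library. The genes were chosen by these values. A gene was eligible when leaf, S6 and S7 each had at least 5 FPKM and lay within a range of less than 1.5 on the log2(FPKM + 1) scale, which held for 4701 genes. Its score was the smallest of the values in leaf, S6 and S7 minus the largest of the values at S1 to S5, on the same scale, so that a score of 1 stands for a 2-fold difference of FPKM + 1. A score of at least 1 was found for 255 genes, and the 250 with the highest score were kept. They are called members hereafter. The members made up 0.996% of the genes analysed and 5.32% of the eligible genes.

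The RNA came from leaf and whole seeds of field-grown plants of the large-seeded cultivar JGK 3, without treatment, in 8 groups of 3 samples. Leaves were collected while the seeds on the plants were in mid-maturation. The study describes S1, S2 and S3 as early-, mid- and late-embryogenesis, S5 as mid-maturation and S7 as late-maturation, and it gives no such name for S4 and S6 in the text used here. Each group was represented by 1 pooled FPKM value per gene, so no spread between replicates could be computed, no difference below has a replicate check, and no p-value is given. In whole seeds and leaf, fewer cells of a type and less RNA per cell cannot be told apart.

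As background, an orthodox seed such as that of chickpea first divides and patterns its embryo, then fills its storage tissues and at last dries out. Genes of abscisic acid signalling, of late embryogenesis abundant proteins and of protection from oxidation are known to be active during drying, and many of them also respond to drought in leaves. Leaf and young green seeds in turn share much of the machinery of photosynthesis and growth. The files give identifiers of the form Ca_ followed by a number and no gene names. Of the genes analysed, 0 matched the RefSeq gene table. The labelled tissues could therefore not be checked against marker genes, the members are described by identifier, and a process is stated only where the study had placed a gene on a process list.

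The members were abundant in the 3 libraries that chose them. Their median level was 51.5 FPKM in leaf, 54.4 FPKM at S6 and 54.2 FPKM at S7, against 7.09, 9.29, 7.42, 8.28 and 8.86 FPKM at S1 to S5. All eligible genes, members included, had medians of 25.9 FPKM in leaf, 27.8 at S6 and 28.8 at S7, against 23.6, 24.2, 22.7, 22.4 and 23.1 FPKM at S1 to S5. The members' medians thus lay above those of the eligible genes in leaf and late seeds and below them in younger seeds. Single members could be low throughout, since the rule asks only for 5 FPKM in leaf, S6 and S7. Together they held 2.09% of the summed FPKM in leaf, 1.26% at S6 and 1.23% at S7, against between 0.384% (S5) and 0.641% (S2) in the younger seeds. The sum itself, over all entries of a library, was 1346728 FPKM in leaf, 2351447 at S6 and 2454016 at S7, and between 820894 (S2) and 1357858 (S5) at the younger stages.

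**Figure D1:**
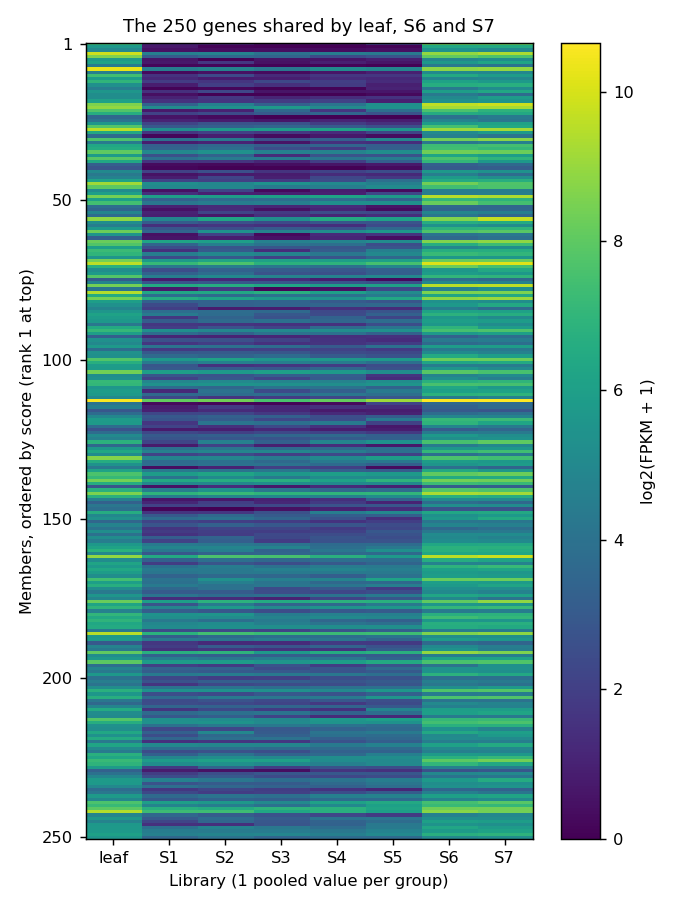
Each row is 1 of the 250 members, ordered by score with the highest at the top, each column is 1 library, and the colour gives log2(FPKM + 1). Leaf, S6 and S7 form bright columns around the darker block of S1 to S5, whose member medians lie between 7.09 and 9.29 FPKM.

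At least 2-fold higher values in leaf, S6 and S7 than at every younger stage were found for 2.38% of the 16585 genes with at least 1 FPKM in any library, and higher values of any size for 11.7%. Each side of the rule alone took in more genes. S6 and S7 were both at least 2-fold above all younger stages for 2144 genes (12.9%), and leaf was at least 2-fold above them for 2469 genes (14.9%). These 2 comparisons share the 5 younger libraries. Since all 8 libraries were used to choose the members, their differences between the high and low libraries are a description. All 250 members were at least 2-fold higher at S6 than at S5, against 25.7% of all genes tested, with a median difference of 2.38 (log2). In leaf against S5 all 250 were at least 2-fold higher (27.2% of all genes tested), with a median of 2.16.

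The scores had a median of 1.44 and a highest value of 5.35. The lower and upper quartile were 1.17 and 2.01, 66 members had a score of at least 2, and 22 had a score of at least 3. All eligible genes had a median score of -0.59. The scores depended on the scaling of the libraries. With each library set to an equal sum, the median score of the members was 0.53 and 68 members still had a score of at least 1. The median member as deposited was 2.96-fold higher in FPKM in its lowest high library than in its highest young library. At the lower end, Ca_20399, Ca_27547 and Ca_21888 were the last genes inside, with scores of 1.02, 1.01 and 1.01. Ca_15161, Ca_14405 and Ca_13266, with scores of 1.01, 1.01 and 1.00, were the first outside the 250. Ca_21888 had 45.7 FPKM in leaf, 31.8 at S6 and 36.9 at S7, against 10.8, 15.3, 10.1, 12.2 and 11.7 FPKM at S1 to S5. Ca_15161 had 89.9 FPKM in leaf, 187 at S6 and 173 at S7, against 31.5, 31.9, 39.8, 44.2 and 35.7 FPKM. The genes just inside and just outside the limit thus differed little in score.

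The member with the highest score was Ca_01556, which the study lists under desiccation, the loss of water that ends seed maturation. It had 149 FPKM in leaf, 284 at S6 and 278 at S7, against 1.23, 1.05, 0.353, 0.467 and 2.68 FPKM at S1 to S5. Its lowest high value was 55.7-fold above its highest young value, and all 5 young values were under 3 FPKM. Ca_05462 came second, with 51.9 FPKM in leaf, 82.0 at S6 and 87.9 at S7, against 0.669, 0.0689, 0.0400, 0.0500 and 0.0913 FPKM at S1 to S5. It is on the study's list of genes in quantitative trait loci (QTL) for seed size or weight. Ca_17660 had 31.2 FPKM in leaf, 42.5 at S6 and 31.3 at S7, against 0.384, 0.291, 0.308, 0.289 and 0.364 FPKM. Its 5 young values spanned only 0.10 on the log2(FPKM + 1) scale, the smallest span of all members.

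Other genes near the top kept a measurable level in young seeds. Ca_12361 had 905 FPKM in leaf, 486 at S6 and 639 at S7, against 23.3, 25.7, 14.8, 21.7 and 18.8 FPKM at S1 to S5. Ca_12964 had 387 FPKM in leaf, 267 at S6 and 197 at S7, against 7.33, 10.9, 9.47, 4.18 and 5.56 FPKM. Ca_06411, which the study lists under differentiation, had 1230.2 FPKM in leaf, 442 at S6 and 486 at S7, against 21.9, 25.9, 17.8, 34.4 and 27.4 FPKM. In all 3 genes leaf was the highest library, and the lowest high value was between 12.9-fold (Ca_06411) and 18.9-fold (Ca_12361) above the highest young value.

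The remaining genes among the 10 with the highest score were low in young seeds. Ca_18699 had 54.9 FPKM in leaf, 28.4 at S6 and 36.6 at S7, against 0.50, 0.0190, 0.471, 0.536 and 0.837 FPKM at S1 to S5. Ca_08975, another gene on the desiccation list, had 70.8 FPKM in leaf, 50.7 at S6 and 75.5 at S7, against 0.622, 2.35, 0.398, 0.904 and 0.520 FPKM. Only S2 was above 1 FPKM among its young values. Ca_10440 had 21.1 FPKM in leaf, 18.9 at S6 and 15.9 at S7, against 0.149, 0.128, 0.0760, 0.112 and 0.0310 FPKM, a 106-fold distance between the lowest high and the highest young value. Ca_05702, which the study lists under grain filling, the laying down of storage reserves, had 22.2 FPKM in leaf, 32.0 at S6 and 29.3 at S7, against 0.208, 0.406, 0.255, 0.525 and 0.924 FPKM.

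**Figure D2:**
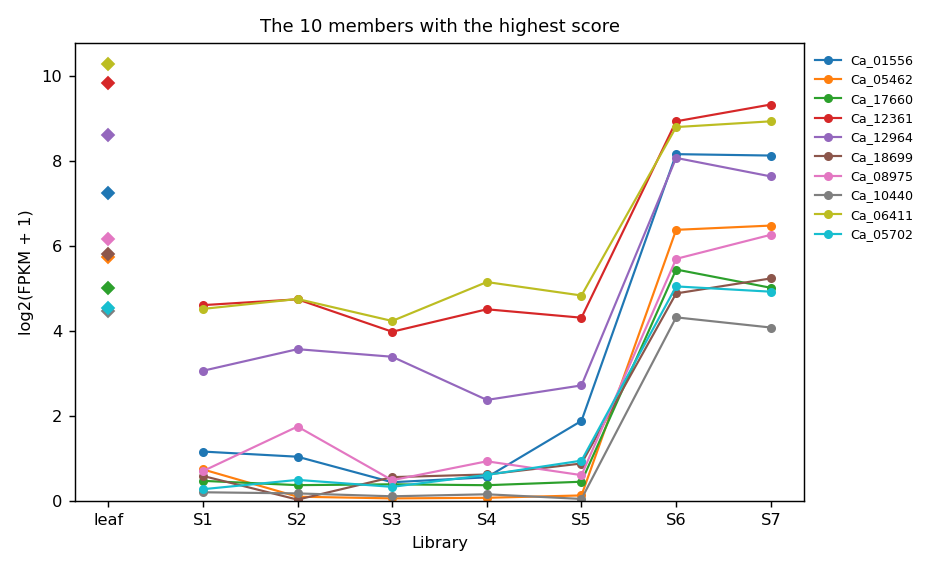
For the 10 members with the highest score, log2(FPKM + 1) is plotted for leaf (diamonds) and for the seed stages S1 to S7 (circles joined by lines), with 1 pooled value per library. Every line steps up between S5 and S6, and S6 and S7 lie less than 1.5 (log2) from the leaf value. The rule asks for both. Ca_01556 had 149 FPKM in leaf, 284 at S6 and 278 at S7, and Ca_06411, near the limit, had 1230.2, 442 and 486 FPKM.

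Few members were close to silent in young seeds. The highest of the 5 young values was under 1 FPKM for 10 members, between 1 and 5 FPKM for 50, between 5 and 50 FPKM for 159 and at least 50 FPKM for 31. Only Ca_11162 at S3 and Ca_05782 at S2 were listed at 0 in any library. For most members the high and the low libraries thus both held measurable levels.

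Several of the members with the highest levels in leaf and late seeds were abundant in young seeds too. Ca_07038 had the highest mean over leaf, S6 and S7, with 1523, 1611 and 1605 FPKM, against 273, 325, 195, 283 and 540.4 FPKM at S1 to S5. Ca_16795 had 775 FPKM in leaf, 1103 at S6 and 1113 at S7, against 142, 199, 110.3, 117 and 179 FPKM. Ca_21268 had 491 FPKM in leaf, 745 at S6 and 892 at S7, against 87.6, 201, 188, 107 and 52.3 FPKM. The young values of this gene were highest at S2 and S3 and lowest at S5, the stage next to S6. Ca_02399 had 381 FPKM in leaf, 796 at S6 and 916 at S7, against 9.46, 23.7, 9.02, 16.0 and 39.2 FPKM. In all, 54 members had at least 100 FPKM in each of leaf, S6 and S7.

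Among leaf, S6 and S7 no library was highest throughout. Leaf was the highest for 93 members (37.2%), S6 for 78 (31.2%) and S7 for 79 (31.6%). Among the other eligible genes these shares were 36.1%, 27.9% and 36.0%, so the split was near theirs. The range over these libraries had a median of 0.72 (log2) and was under 0.5 for 78 members and at least 1 for 72, with 1.5 as the limit set by the rule. On the log2(FPKM + 1) scale the difference between leaf and the mean of S6 and S7 had a median of -0.11. Leaf was at least 2-fold higher for 20 members and at least 2-fold lower for 24, while 32.6% and 29.4% of all genes tested and 8.04% and 14.7% of the other eligible genes were as far apart in these directions. The limit on the range kept the members' share low, so nothing is read from it. The FPKM values were used as deposited, and 3 further scalings were tried, which used the entries with an identifier and set the libraries to an equal sum, to an equal upper quartile of the entries with at least 1 FPKM, or to a median ratio of 1 against the geometric mean of all libraries. The split depended on this choice, with 86 members higher and 0 lower in leaf after scaling to equal sums, 36 and 6 after scaling by the upper quartile, and 24 and 16 after scaling by the median ratio. The median of all genes tested moved to 0.74, 0.29 and 0.14 (log2) under these scalings. Leaf, S6 and S7 were the highest library for 196, 29 and 25 members after scaling to equal sums and for 129, 60 and 61 after scaling by the upper quartile, so the near-even split is that of the values as deposited.

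**Figure D3:**
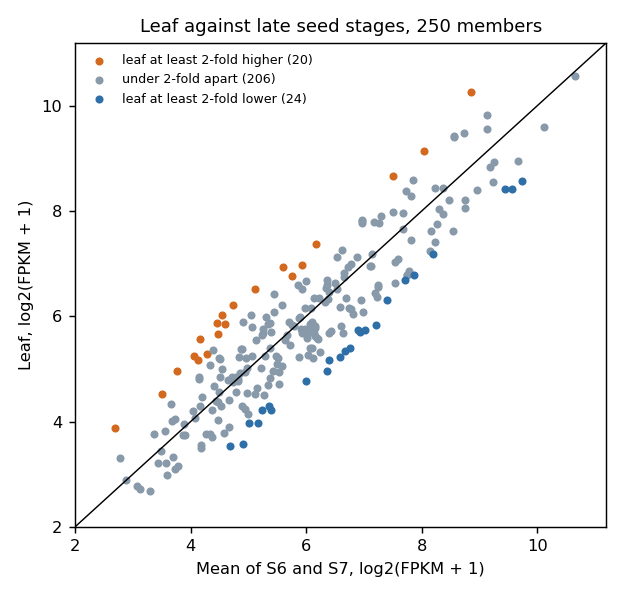
Each point is 1 of the 250 members, with the mean log2(FPKM + 1) of S6 and S7 on the x axis, that of leaf on the y axis, and a line where both are equal. Leaf was at least 2-fold higher for 20 members and at least 2-fold lower for 24, and the points follow the line because the rule limits the distance.

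Leaf stood farthest above late seeds for Ca_06179, Ca_08567 and Ca_05872. Ca_06179 had 63.9 FPKM in leaf, against 22.0 at S6 and 22.3 at S7, a difference of 1.49 (log2). Ca_08567 had 72.9 FPKM in leaf, against 25.8 and 25.2 FPKM at S6 and S7, and Ca_05872 had 91.2 FPKM in leaf, against 33.8 and 33.2 FPKM. In these genes S6 and S7 were nearly equal. Leaf stood farthest below late seeds for Ca_10085, with 30.2 FPKM in leaf, against 80.8 at S6 and 81.1 at S7. Ca_08175 had 40.9 FPKM in leaf, against 107 FPKM at both S6 and S7. Ca_11858 had 56.2 FPKM in leaf, against 141 at S6 and 151 at S7.

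Between S6 and S7 the members were close, as the rule asks. At least 2-fold higher values at S7 were found for 2 of 250 members (1.36% of all genes tested) and lower values for 3 (3.69% of all genes tested). The other eligible genes had 0.494% higher and 0.584% lower. Of the members, 125 members were higher and 125 lower by any amount. Ca_05883 had 38.5 FPKM at S7, against 15.4 at S6, and Ca_05287 had 847 FPKM at S7, against 402 at S6. The lowest ratios were those of Ca_15217, with 50.6 FPKM at S7, against 133 at S6, and Ca_12085, with 84.5 FPKM at S7, against 183 at S6. In leaf, Ca_15217 had 79.8 FPKM and Ca_12085 had 223 FPKM.

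The rule limited the highest of the 5 young values, and with it all 5, but asked for no order among S1 to S5. The other eligible genes, used for comparison below, were not held to this limit. The young values spanned a median of 0.93 (log2) per member, under 1 for 140 members and at least 2 for 25. All eligible genes spanned a median of 0.88. S5 was the highest young stage for 82 members and S2 for 75, followed by S4 for 36, S1 for 30 and S3 for 27. S2 was thus the highest young stage for 30.0% of members, against 19.3% of the 4451 other eligible genes. S5 was highest for 32.8% of members, against 30.9% of the others, and S1 for 12% of members, against 24.8% of the others. The members were much lower in young seeds than the other eligible genes, and the part of this in the order of stages was not tested. After scaling to equal sums, S2 was the highest young stage for 134 members and S5 for 37. S5 stayed ahead of S2 with the upper quartile (71 against 64 members) and with the median ratio (85 against 69). The order of these stages thus changed with equal sums only.

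**Figure D4:**
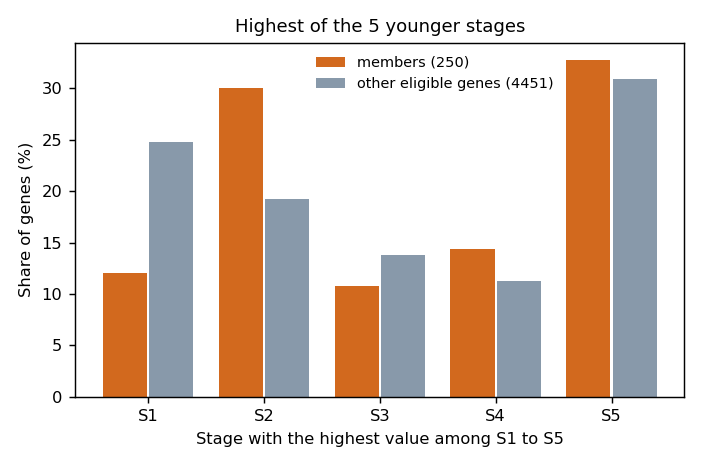
Bars give the share of genes (%) whose highest value among S1 to S5 fell on each stage, for the 250 members and for the 4451 other eligible genes. S2 stands out for the members, with 30.0% against 19.3%, and S1 is less frequent, with 12% against 24.8%.

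More members were higher at S2 than at S1 than were lower. Of 231 members with at least 1 FPKM at either stage, 27 were at least 2-fold higher at S2 (11.7%, against 8.82% of all genes tested) and 2 were lower (0.866%, against 5.90%). Of the other eligible genes, 4.32% were higher and 2.05% lower. The median difference was 0.24 (log2) for members and -0.02 for all genes tested. Ca_11811 had 15.3 FPKM at S2, against 1.37 at S1, and Ca_00573 had 24.4 FPKM at S2, against 3.70 at S1. The largest differences downward were those of Ca_16671, with 1.90 FPKM at S2, against 6.17 at S1, and Ca_16752, with 0.750 FPKM at S2, against 2.95 at S1.

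The next step had the opposite direction. Of 230 members, 2 were at least 2-fold higher at S3 than at S2 (0.870%, against 4.54% of all genes tested) and 29 were lower (12.6%, against 7.32%), with a median of -0.20 for members and 0.01 for all genes tested. Of the other eligible genes 0.854% were higher, close to the share of members, and 4.18% were lower. Ca_02622 had 1.46 FPKM at S3, against 9.24 at S2, and Ca_24738 had 0.216 FPKM at S3, against 3.71 at S2. The only members at least 2-fold higher at S3 were Ca_26807, with 11.6 FPKM at S3, against 1.02 at S2, and Ca_01890, with 6.10 FPKM at S3, against 1.74 at S2. Both steps share the pooled S2 library, so they are not 2 independent observations. S2 lay above both S1 and S3 for 131 members (52.4%, against 33.3% of the other eligible genes) and below both for 41 (16.4%, against 35.3%). Both steps passed 2-fold for 14 of 234 members (5.98%, against 3.66% of all genes tested and 2.32% of the other eligible genes).

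Each scaling multiplies a whole library by 1 factor and moves members and all genes nearly alike, so it is no check of the difference between them. Scaling to equal sums by itself moved the median of all genes tested to 0.22 for S2 over S1 and to -0.22 for S3 over S2. S2 had the lowest summed FPKM of all 8 libraries, and whether a property of this library enters the difference was not tested.

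Between S3 and S4, 12 of 231 members were at least 2-fold higher at S4 (5.19%, against 7.55% of all genes tested) and 3 were lower (1.30%, against 6.93%). Of the other eligible genes, 4.36% were higher and 4.16% lower, so the members' share of higher values lay below that of all genes and above that of the other eligible genes. Ca_15616 had 21.9 FPKM at S4, against 5.29 at S3, and Ca_27497 had 7.41 FPKM at S4, against 1.56 at S3. Ca_26807 had 2.26 FPKM at S4, against 11.6 at S3, and Ca_00256 had 4.06 FPKM at S4, against 11.5 at S3.

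Between S4 and S5, 20 of 234 members were at least 2-fold higher at S5 (8.55%, against 8.38% of all genes tested) and 10 were lower (4.27%, against 10.9%). Of the other eligible genes, 3.58% were higher and 3.87% lower. The share of members higher at S5 was thus near that of all genes and above that of the other eligible genes, and the share lower was under that of all genes and near that of the other eligible genes. Of the members apart, 66.7% were higher at S5 as deposited, but 33.3% were after scaling to equal sums, 54.8% after scaling by the upper quartile and 70.0% after scaling by the median ratio. Ca_01643 had 26.7 FPKM at S5, against 1.82 at S4, and Ca_26807 had 13.8 FPKM at S5, against 2.26 at S4. The largest differences downward were those of Ca_04114, with 3.35 FPKM at S5, against 19.5 at S4, and Ca_01056, with 1.52 FPKM at S5, against 7.01 at S4. At S6 these genes were high, with 122 FPKM for Ca_04114 and 36.2 FPKM for Ca_01056.

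**Figure D5:**
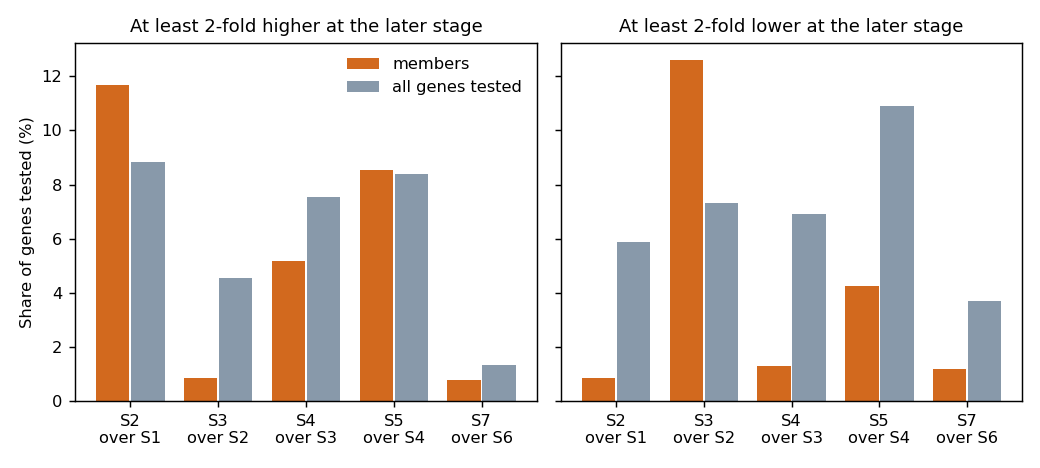
Bars give the share (%) of genes at least 2-fold higher (left panel) or lower (right panel) at the later stage, on the log2(FPKM + 1) scale, for the members and for all genes tested in each step. Members stand above all genes in S2 over S1 for higher values (11.7% against 8.82%) and in S3 over S2 for lower values (12.6% against 7.32%).

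Some members differed at S5 from the stages before it, in shares near or below those of all genes tested. S5 was at least 1 (log2) above the mean of S1 to S4 for 29 of 240 members (12.1%, against 13.0% of all genes tested and 7.84% of the other eligible genes). It was at least 1 below that mean for 12 members (5.0%, against 15.6% and 7.66%). Ca_15616 had the widest span of young values, 3.36 (log2), with 2.06, 2.25, 5.29, 21.9 and 30.3 FPKM at S1 to S5 beside 96.2 FPKM in leaf, 78.1 at S6 and 84.1 at S7. Ca_27497 had 1.70, 7.19, 1.56, 7.41 and 23.6 FPKM at S1 to S5, with 152 FPKM in leaf, 97.3 at S6 and 98.4 at S7. Ca_01890 had 18.5 FPKM at S5 beside 50.8 FPKM in leaf, 43.2 at S6 and 38.7 at S7. In each of these genes S5 was the highest of the young stages.

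By process, the study's lists held 27 members and left 223 unlisted. The lists were drawn from gene ontology terms or QTL, and all 6 were limited to genes with a differentially methylated region (DMR), a stretch whose DNA methylation differs between stages or cultivars, or with differential expression between them, so a member's place on a list is not independent evidence of its pattern. The desiccation list held 4 members among its 39 eligible genes (10.3%, against 5.32% of all eligible genes), and the median score of those 39 genes was -0.22, against -0.59 for all eligible genes. This list held few eligible genes, and whether members were more frequent there than among other genes was not tested. Over all 156 genes of the list that were analysed, the median score was -1.57, against -0.59 for all genes. The medians of all 6 lists lay below that of all genes, from -1.12 (QTL) to -2.22 (grain filling). Of the 25110 genes analysed, 16585 had at least 1 FPKM in any library, and the score of the rest is held near 0. No direction for desiccation is therefore read from this comparison. Beside Ca_01556 and Ca_08975, the members on the desiccation list were Ca_05322 and Ca_11514. Ca_05322 had 49.1 FPKM in leaf, 59.0 at S6 and 69.1 at S7, against 3.57, 5.70, 5.49, 2.87 and 1.82 FPKM at S1 to S5. Ca_11514 had 31.0 FPKM in leaf, 19.9 at S6 and 25.3 at S7, against 3.90, 2.03, 2.76, 3.86 and 6.35 FPKM.

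The grain filling list also held 4 members among 39 eligible genes (10.3%), although the median score of its eligible genes was -1.23 and thus below that of all eligible genes. Over its 154 genes analysed the median was -2.22. This list also held few eligible genes, and its share of members was not tested against that of other genes. Besides Ca_05702, its members were Ca_26807, Ca_08305 and Ca_07112. Ca_26807 had 218 FPKM in leaf, 197 at S6 and 118 at S7, against 0.668, 1.02, 11.6, 2.26 and 13.8 FPKM at S1 to S5, and its young values were highest at S3 and S5. Ca_07112 had 16.7 FPKM in leaf, 24.7 at S6 and 38.6 at S7, against 0.682, 2.41, 0.122, 0.414 and 3.97 FPKM. Ca_08305, which is also on the differentiation list, had 109 FPKM in leaf, 299.9 at S6 and 179 at S7, against 17.8, 21.9, 17.8, 13.8 and 27.4 FPKM.

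The differentiation list held 9 members among 164 eligible genes (5.49%), close to the share among all eligible genes. Beside Ca_06411 and Ca_08305, the highest score was that of Ca_15936, with 48.8 FPKM in leaf, 50.8 at S6 and 48.7 at S7, against 14.2, 17.4, 12.2, 11.4 and 13.5 FPKM. The QTL list held 12 members among 221 eligible genes (5.43%). After Ca_05462, its highest scores were those of Ca_04449 and Ca_05397. Ca_04449 had 749.5 FPKM in leaf, 528 at S6 and 590.1 at S7, against 38.9, 54.6, 59.3, 69.9 and 48.5 FPKM. Ca_05397 had 344 FPKM in leaf, 291 at S6 and 308 at S7, against 53.2, 73.1, 67.0, 60.7 and 64.6 FPKM.

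No member was on the lists of cell cycle (0 of 54 eligible genes) or cell growth (0 of 37), against 5.32% of all eligible genes. Both lists held few eligible genes, and whether members were fewer there than among other genes was not tested. The median score of their eligible genes was -1.20 and -1.02, below the -0.59 of all eligible genes. Of 24 genes that the study names in its text, 0 were members, beside 0.996% of all genes analysed. At that share nothing can be read from the 0.

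Other entries of the tables give values that the rule did not use. For 25 members the identifier occurred on further entries, 26 in all, of which 24 reached 1 FPKM in any library. Leaf, S6 and S7 were all above S1 to S5 in 13 of these 24, and by at least 1 (log2) in 7. Of all genes with at least 1 FPKM in any library, 11.7% and 2.38% were so. The identifiers of the further entries had already been chosen for this pattern, so nothing is read from the difference. Only 3 further entries met the whole rule, which also asks for 5 FPKM in leaf, S6 and S7. The further entry of Ca_05462 had 32.8 FPKM in leaf, 41.6 at S6 and 46.4 at S7, against at most 0.497 FPKM at S1 to S5, much like its main entry. A further entry of Ca_25846 had 76.3 FPKM in leaf, 60.7 at S6 and 66.5 at S7, against 16.4, 21.5, 16.7, 7.83 and 2.53 FPKM. Others did not share the pattern, and the further entry of Ca_12361 had 24.1 FPKM in leaf, 10.3 at S6 and 21.6 at S7, against 0.364, 1.03, 1.15, 15.5 and 20.1 FPKM at S1 to S5. How reads were divided between entries of an identifier is not given in the sources used here.

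Some members had neighbouring identifier numbers, in 3 pairs. The number of pairs among as many other genes was not counted, so nothing is read from these 3. Ca_15617 had 76.7 FPKM in leaf, 68.4 at S6 and 91.0 at S7, against 31.7, 28.5, 28.3, 19.7 and 25.5 FPKM at S1 to S5. It was close to Ca_15616 in leaf and from S4 onward and far above it at S1 to S3. Ca_08304 and Ca_08306, on either side of Ca_08305, had lower levels in leaf and late seeds, with 25.9 FPKM in leaf, 27.0 at S6 and 24.0 at S7 for Ca_08304 and 27.6, 15.9 and 17.4 FPKM for Ca_08306. Their young values were between 4.62 and 9.0 FPKM for Ca_08304 and between 3.86 and 7.05 FPKM for Ca_08306, with S2 highest in both. The place of these genes in the genome was not analysed here.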

How the data were processed

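RNA-seq libraries of leaf and 7 seed stages were analysed. Per the labels and methods, the authors used NGS QC Toolkit as read filter and TopHat as aligner, on the annotated chickpea genome, and deposited FPKM values from Cufflinks. Differential genes had been called by the authors with Cuffdiff (v2.0.2), but no such values were used. The 3 samples of a group shared 1 deposited column, and how they were pooled or scaled is not given in the sources used here. The number of reads, and hence the counting error, is unknown. The tables had 35234 entries. Entries with a single identifier were used, the one with the highest mean where an identifier was repeated, and 1 identifier was left out. Members and lists were chosen with earlier results of these data known. A step between stages was counted at 2-fold on log2(FPKM + 1), which understates changes of low genes, for genes reaching 1 FPKM in one of the stages compared. Since columns were pooled, no test was run. Genes were named by extremes of score, level, step or leaf difference, by the score limit, or by list. Ca_11162, Ca_05782, Ca_25846, Ca_15617, Ca_08304 and Ca_08306 were named after their values were seen. Other pseudocounts, limits and 3 scalings were tried. Python 3.11.15, numpy 2.4.6 and pandas 2.3.3 were used, and the calculations were tested on simulated data.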

Additional observations from a re-analysis of the deposited data

How the results depend on the processing

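Of the alternatives tried for the 255 genes that met the limits, some moved the count by over 1.5 times. These were the score limits and the scalings to the same sum and to the same upper quartile. Scaling to the same sum left 71 genes, 52 of them members, and scaling to the same upper quartile left 128, with 113 members. Scaling by the median ratio moved the count less and gave 274 genes, 237 of them members. With the same sum the median score of the members was 0.53, and 209 members still had leaf, S6 and S7 above S1 to S5. With the same upper quartile this held for all 250 members. A score of at least 2 gave 66 genes and a score of at least 0.5 gave 562. The other 12 alternatives gave between 179 and 363 genes.

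For S2 over S1, the 29 members at least 2-fold apart became 9 with a pseudocount of 5, 3 with a 4-fold limit and 46 with the same sum. For S3 over S2, 31 became 12 with a pseudocount of 5 and 2 with a 4-fold limit. For S4 over S3, 15 became 27 with a pseudocount of 0.1, 4 with a pseudocount of 5 and 0 with a 4-fold limit. For S5 over S4, 30 became 46, 9 and 3 under the same settings. For S7 over S6, 5 became 0 with a 4-fold limit. For leaf over the mean of S6 and S7, 44 became 0 with a 4-fold limit and 86 with the same sum. Only 15 members, and not 27, were on a list when list entries without a DMR were left out. A larger pseudocount or a higher limit counts fewer genes by construction, and the cause of the other shifts was not tested.

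No paired analysis was possible because the samples of a group share 1 pooled column. For the same reason no fit without a sample was run. Depth is unknown, so values under 1 FPKM in young seeds are of unknown precision.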

Other observations

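Some entries outside the single-identifier genes held the same pattern. Of 675 entries that join several identifiers and met the minimum and the range, 37 (5.48%) also had a score of at least 1. This was near the 5.42% of the eligible genes. Of 368 such entries without any gene identifier, 36 (9.78%) did. None of the joined entries contained a member (0 entries).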
